A study of Mus musculus with 4 samples.

Results

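The regions described here are stretches of open chromatin away from genes' ends that were called in cultured mouse monocytes of both genotypes and in neither library of their myeloid progenitors. Overlapping accessible intervals of 4 Omni-ATAC-seq libraries were merged wherever they shared a base, on chromosomes 1 to 19 and X of mm10. A monocyte-only distal region had an interval in both monocyte libraries and none in either progenitor library. It lay over 2.5 kb from every end of a protein-coding gene, and inside or within 100 kb of a gene body. The rule gave 13775 regions of 120423 in all (11.44%), and of 84904 distal regions placed by the same distances they were 16.2%. They were selected on the presence and absence of deposited calls, so their absence from the progenitor lists is a description and not a finding.

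The libraries were 1 each of Cxcr3-/- monocytes, wild-type (WT) monocytes, Cxcr3-/- common myeloid progenitors with granulocyte-monocyte progenitors (CMP/GMP) and WT CMP/GMP, all from bone marrow of C57BL/6J mice and all grown in vitro. Cxcr3 encodes a chemokine receptor, and the study asked about its part in macrophage differentiation. The labels give hepatocellular carcinoma as the disease state of every sample, from a model in which mice received diethylnitrosamine and tetrachloromethane, and the series' design text says that the cells for ATAC-seq were cultured. With 1 library per group there is no replicate, and all intervals below are exact 95% intervals for counting error only, with no p-value. In bulk libraries, chromatin open in fewer cells and chromatin less open per cell cannot be told apart.

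Distal open regions are often enhancers, stretches of DNA where transcription factors bind and act on promoters at a distance. In the myeloid lineage PU.1 and C/EBP factors open many of them in progenitors, and as monocytes become macrophages AP-1, MAF and other factors are known to act at further sites beside PU.1. Which gene a distal region acts on cannot be read from its position, so gene names below give the gene whose body holds the region or lies nearest to it.

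The labelled cell types were compared with calls within 1 kb of marker genes' ends. Tags are given as counted unless scaling is named, and the libraries differed in depth. The ends of Mpo and Elane, which encode primary granule proteins of granulocyte precursors, had calls in both CMP/GMP libraries (82 and 56 tags in Cxcr3-/-, 48 and 25 in WT) and in neither monocyte library. The wider list of 25 granulocyte and GMP granule genes was less clear-cut. Of these, 21 and 19 had such calls in Cxcr3-/- and WT CMP/GMP, and 13 and 15 in Cxcr3-/- and WT monocytes. The strongest call at Trem2, a lipid-sensing receptor of macrophages, had 72 tags in Cxcr3-/- and 101 in WT monocytes, against 50 in Cxcr3-/- and 36 in WT CMP/GMP. Divided by the size factors given below, these were 85.07 and 93.95 against 36.91 and 43.6. The monocyte markers Csf1r and Ly6c2 did not stand out in the same way. Csf1r ends had 26 and 34 tags in Cxcr3-/- and WT monocytes, against 70 and 46 in Cxcr3-/- and WT CMP/GMP, and Ly6c2 had 26 and 29 against 59 and 33. After the same scaling Csf1r had 30.72 and 31.63 against 51.68 and 55.71, and Ly6c2 30.72 and 26.98 against 43.56 and 39.96. Ccr2, another marker of classical monocytes, had no call in Cxcr3-/- monocytes and 13 tags in WT monocytes, against 39 and 14 in Cxcr3-/- and WT CMP/GMP. Cd3e, Gata1 and Alb, which mark T cells, erythroid cells and hepatocytes, had no call in any library.

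The sequence under most of these regions was not analysed here, since promoter windows from RefSeq (GRCm38.p6, the mm10 assembly, 250 bases before to 50 after a start site) were the sequence at hand. Of the 13775 regions, 134 (0.973%, 0.816 to 1.15%) overlapped such a window, 142 windows in all. Of these, 89 were of long non-coding RNAs (lncRNAs), and 53 of protein-coding transcripts whose start is not an outer end of the gene, so that the rule on gene ends does not exclude them. An overlap was also found for 1322 constitutive distal regions, called in all 4 libraries (4.79%), and for 90 CMP/GMP-only distal regions, called in both CMP/GMP and neither monocyte library (1.37%). Windows under constitutive regions were of lncRNAs in 666 cases and of protein-coding transcripts in 892. Under CMP/GMP-only regions the numbers were 65 and 32. The letters of the AP-1 motif, the site of Fos and Jun dimers, recurred in the monocyte-only windows. The 8 windows below come from the regions of highest WT monocyte pileup among those with a match within 60 bases of the summit. Each is named by its lncRNA, runs 5′ to 3′ on the strand of that transcript as given in brackets, and has the AP-1 letters in capitals.
Dnmt3aos, chr12:3862410-3862470 (-): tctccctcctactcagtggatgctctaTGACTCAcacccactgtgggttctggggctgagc
Gm36199, chr17:29434730-29434790 (+): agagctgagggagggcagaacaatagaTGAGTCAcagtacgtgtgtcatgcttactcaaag
9930111H07Rik, chr1:85775224-85775284 (+): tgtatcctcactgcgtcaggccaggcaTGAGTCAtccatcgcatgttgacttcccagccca
Gm35396, chr2:35883415-35883475 (+): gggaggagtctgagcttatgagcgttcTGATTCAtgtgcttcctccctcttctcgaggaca
Gm36102, chr1:92752034-92752094 (+): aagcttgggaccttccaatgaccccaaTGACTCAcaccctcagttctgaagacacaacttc
Gm15759, chr1:58315757-58315817 (-): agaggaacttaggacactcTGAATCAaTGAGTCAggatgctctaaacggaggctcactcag
5033421B08Rik, chr12:8511158-8511212 (+): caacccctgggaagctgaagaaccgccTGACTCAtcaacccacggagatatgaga
Gm34618, chr15:11964305-11964365 (-): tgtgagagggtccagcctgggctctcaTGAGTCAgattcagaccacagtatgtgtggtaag

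The Dnmt3aos region lay inside Dnmt3a, which encodes a DNA methyltransferase, 51755 bp from the nearest protein-coding gene end. It had 68 tags in Cxcr3-/- and 80 in WT monocytes, with the motif 40 bp from the WT summit. The 9930111H07Rik region lay 18095 bp from Cab39, a partner of the kinase Stk11, and had 42 tags in Cxcr3-/- and 60 in WT monocytes. The Gm36199 region, 55079 bp from Fgd2, had 43 tags in Cxcr3-/- and 67 in WT monocytes, with the motif 12 bp from the WT summit. The Gm15759 region inside Aox2 had 42 tags in both genotypes and holds a pair of AP-1 matches with 1 base between them. All 8 regions were called in both monocyte genotypes and had no call in CMP/GMP of either genotype, as the rule requires.

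AP-1 letters (TGANTCA, either strand) stood in 40 of the 142 windows under monocyte-only regions (28.2%, 20.9 to 36.3%). They stood in 134 of 1558 windows under constitutive distal regions (8.6%, 7.26 to 10.1%), in 2 of 97 under CMP/GMP-only distal regions (2.06%, 0.251 to 7.25%) and in 2559 of all 32619 RefSeq windows (7.85%). Counted only on bases that a region and its windows shared, 34 of 134 monocyte-only regions held a match (25.4%), against 102 of 1322 constitutive (7.72%) and 1 of 90 CMP/GMP-only regions (1.11%). That is 1.54 matches per kb in monocyte-only regions, 0.317 in constitutive and 0.117 in CMP/GMP-only regions. The windows differ in base composition, with a median GC content of 49.7% under monocyte-only regions, 56.7% under constitutive regions, 53.3% under CMP/GMP-only regions and 53% over all windows. Among windows of 40 to 50% GC the share with AP-1 letters was 25.4% (16 of 63) for monocyte-only, 12% for constitutive and 9.09% for CMP/GMP-only regions, and 10.8% for all windows. Among windows of 50 to 60% GC it was 38% (19 of 50) for monocyte-only regions, 12.1% for constitutive regions and 7.49% for all windows.

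Of the 37 AP-1 matches in shared bases, 30 lay within 50 bp of the Cxcr3-/- summit and 30 within 50 bp of the WT summit, at median distances of 26 and 23 bp. That is 81.1% of the matches for either summit, while 41% of the shared bases lay within 50 bp of the Cxcr3-/- summit and 39.9% within 50 bp of the WT summit. Such distances were not computed for constitutive or CMP/GMP-only regions. This closeness is therefore not shown to be particular to monocyte-only regions. A match is a run of letters and no measurement of binding.

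C/EBP letters (TTGCNNAA) showed the reverse order. They stood in 7 of 142 monocyte-only windows (4.93%, 2 to 9.89%), in 179 of 1558 constitutive windows (11.5%, 9.95 to 13.2%), in 25 of 97 CMP/GMP-only windows (25.8%, 17.4 to 35.7%) and in 10.9% of all windows. Among windows of 40 to 50% GC the shares were 3.17% (2 of 63) for monocyte-only, 20.7% for constitutive and 54.5% (12 of 22) for CMP/GMP-only regions, and 14.8% for all windows. Among windows of 50 to 60% GC they were 6% (3 of 50) for monocyte-only, 13% for constitutive and 14% (7 of 50) for CMP/GMP-only regions, and 10.7% for all windows. Matches at CMP/GMP-only regions are shown with the C/EBP letters in capitals for contrast with the AP-1 sequences above.
Gm46423, chr13:63906752-63906812 (-): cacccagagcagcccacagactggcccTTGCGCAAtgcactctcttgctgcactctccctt
Gpld1, chr13:24943052-24943112 (+): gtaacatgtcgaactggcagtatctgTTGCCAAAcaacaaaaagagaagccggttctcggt
Fam78a, chr2:32084835-32084895 (-): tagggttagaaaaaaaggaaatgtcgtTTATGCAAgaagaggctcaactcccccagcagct
These regions had no call in monocytes of either genotype. The Gm46423 region had 31 tags in Cxcr3-/- and 20 in WT CMP/GMP, the Gpld1 region 36 and 19, and the Fam78a region 24 and 17.

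The other myeloid motifs separated the windows less. PU.1 letters (GAGGAAGT) stood in 5.63% of monocyte-only (2.46 to 10.8%), 5.58% of constitutive, 2.06% of CMP/GMP-only and 3.22% of all windows. MAF letters (TGCTGAC), whose end can overlap an AP-1 match, stood in 8.45% of monocyte-only windows (4.44 to 14.3%), 5.65% of constitutive, 5.15% of CMP/GMP-only and 4.71% of all windows. RUNX letters (TGTGGTT) stood in 7.75% of monocyte-only windows (3.93 to 13.4%), 4.88% of constitutive, 15.5% of CMP/GMP-only (8.92 to 24.2%) and 5.29% of all windows. A core of the CTCF site (AGGGGGC) stood in 8.45% of monocyte-only windows, 14.6% of constitutive, 9.28% of CMP/GMP-only and 10.7% of all windows. The other motifs searched were CCGGAAGT for ETS factors, TGACGTCA for CRE, TCACGTG for the MiT/TFE E-box, GAAANNGAA for the IRF repeat, GGAANNGAA for the ETS-IRF composite, GGGANTTCC for NF-kB, GGGNGTGG for KLF factors, GCGTGGGCG for EGR, AGATAAG for the GATA family, CCGTTA for MYB factors, TTCNNNGAA for STAT factors, GTGGGAA for RBPJ and ATTTGCAT for OCT factors. Letters of PU.1, ETS and the ETS-IRF composite can overlap, as can those of the composite and the IRF repeat. Of the 19 motifs, AP-1 and C/EBP were those whose monocyte-only interval did not hold the share over all windows. Both strands were read, and this search was chosen after the files had been seen.

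**Figure D1:**
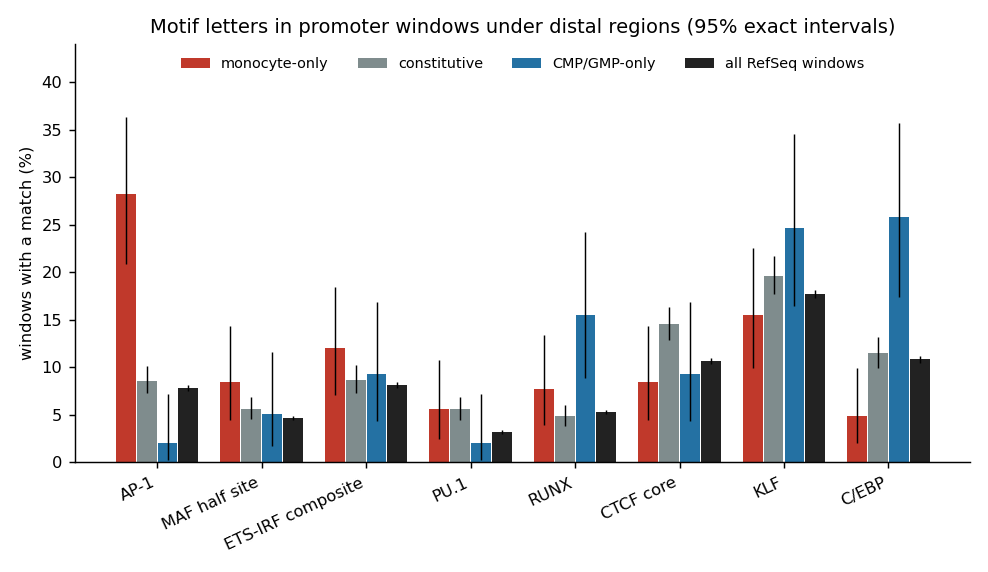
Share of RefSeq promoter windows (%, y axis) that hold the letters of 8 of the 19 motifs (x axis), for windows under monocyte-only, constitutive and CMP/GMP-only distal regions and for all windows; bars are shares and lines exact 95% intervals. AP-1 letters stood in 28.2% of monocyte-only windows against 7.85% of all windows, and C/EBP letters in 4.93% of monocyte-only against 25.8% of CMP/GMP-only windows.

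Accessibility of each region is given as its summit pileup, the number of tags stacked at the highest point of an interval, recovered as a whole number from the deposited fold enrichment and −log10 p. The monocyte-only regions were weaker and narrower than constitutive ones. Their median pileup was 16 tags in Cxcr3-/- monocytes (lowest 6, highest 209) and 20 in WT monocytes (lowest 5, highest 235), while constitutive distal regions had medians of 26 and 33 tags in the same libraries. A mean pileup of at least 30 tags over both monocyte libraries was reached by 3044 monocyte-only regions (22.1%), against 13470 constitutive distal regions (48.83%). At 100 tags the numbers were 75 and 1099. The median width was 236 bp, with 138 to 488 bp at the 5th and 95th percentiles, and for constitutive distal regions, merged from 4 lists rather than 2, it was 403 bp. CMP/GMP-only distal regions, merged from 2 lists as well, had a median width of 239 bp. Their median pileup was 22 tags in Cxcr3-/- and 15 in WT CMP/GMP, so low width and pileup are not particular to monocyte-only regions. The summits of both genotypes lay a median of 22 bp apart and within 50 bp of each other in 81.92% of monocyte-only regions, against 20 bp and 81.3% in constitutive distal regions.

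The strongest monocyte-only region lay inside Camk2d, which encodes a calcium/calmodulin-dependent kinase, at chr3:126831386-126831963. It had 209 tags in Cxcr3-/- monocytes and 235 in WT monocytes, and ranked 194 among the intervals of the Cxcr3-/- list and 104 among those of the WT list by q. Inside Abhd12, a serine hydrolase of lysophospholipids, a region at chr2:150840076-150840674 had 163 tags in Cxcr3-/- and 181 in WT monocytes. Outside gene bodies the strongest was 37735 bp from Socs6, a suppressor of cytokine signalling, with 151 tags in Cxcr3-/- and 146 in WT monocytes.

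The other strongest regions lay in genes of varied roles. Ikbkb encodes a kinase that activates NF-kB, and the region in its body at chr8:22693182-22693655 had 129 tags in Cxcr3-/- and 146 in WT monocytes. Mapkapk3, a kinase downstream of p38, held one of 133 tags in Cxcr3-/- and 152 in WT monocytes at chr9:107278501-107278869. Anxa5, which encodes the phosphatidylserine-binding annexin A5, held one of 129 and 152 tags. Gpat3, an enzyme of glycerolipid synthesis, held one of 131 tags in Cxcr3-/- and 145 in WT monocytes. Others lay in Fbxo31, Slc39a10 (a zinc importer), Ednrb (the endothelin B receptor), Hpcal1, Mical2, Fastkd3, Tom1 and Man2a1, with 124 to 145 tags in Cxcr3-/- and 115 to 150 in WT monocytes. Of the 15, only the Socs6 region lay outside a gene body.

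**Figure D2:**
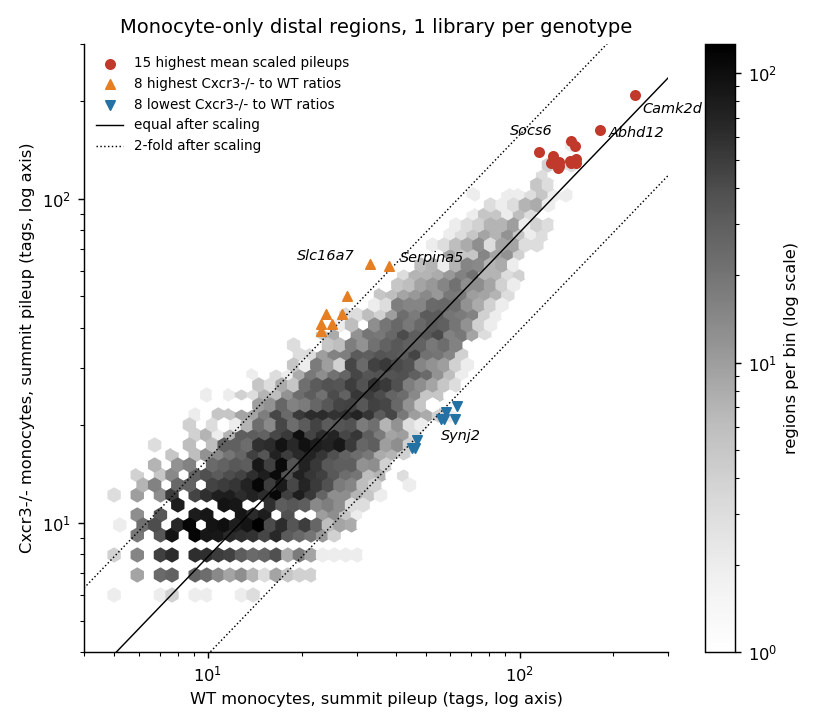
Summit pileup (tags, log axes) of the 13775 monocyte-only distal regions in Cxcr3-/- monocytes (y axis) against WT monocytes (x axis), grey by number of regions per bin, with the solid line marking equal pileup after scaling and dotted lines 2-fold differences. Circles mark the 15 strongest regions, led by Camk2d at 209 and 235 tags, and triangles the 8 highest and 8 lowest Cxcr3-/- to WT ratios among regions of 30 tags or more, such as Slc16a7 and Synj2.

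A region can be missing from the CMP/GMP lists for want of depth. Had each monocyte-only region been as open in CMP/GMP as in monocytes, its pileup would have been a median of 25.23 tags in the Cxcr3-/- CMP/GMP library and 15.38 in the WT CMP/GMP library, where called regions had medians of 29 and 21 tags and 5th percentiles of 13 and 10. At least the median was expected in both CMP/GMP libraries for 4283 regions (31.09%, 30.32 to 31.87%), called the stronger regions below, and for 8475 when libraries were scaled by background tags. All 3044 regions of 30 tags or more were among them. At the other end, 2590 (18.8%) were expected below the 5th percentile of calls in at least 1 CMP/GMP library, and for these a missing call says little. For the Camk2d region 315.3 and 192.2 tags were expected in Cxcr3-/- and WT CMP/GMP. The interval lists hold no value where nothing was called, so the pileup in CMP/GMP is not known for any monocyte-only region.

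The presence patterns around the rule were graded. Another 4343 distal regions were called in both monocyte libraries and in Cxcr3-/- CMP/GMP only, and 1182 in both monocyte libraries and in WT CMP/GMP only. Calls in Cxcr3-/- monocytes alone numbered 2217 and calls in WT monocytes alone 11572, in lists of 78244 and 98257 intervals. At the distance limit, a region 2502 bp from Camk2d with 77 tags in Cxcr3-/- and 96 in WT monocytes was just inside, and one 2500 bp from an end of Ap5z1 with 27 and 25 tags was just outside. At 100 kb, a region 99791 bp from Slc30a5 was inside and one 100251 bp from Klf7 outside. The weakest monocyte-only regions, in Dst and near Glrp1, had 6 tags in Cxcr3-/- and 5 in WT monocytes.

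Monocyte-only regions lay inside gene bodies more often than constitutive or CMP/GMP-only distal regions. The share was 63.93% (63.13 to 64.74%), against 57.72% (57.14 to 58.31%) of constitutive and 57.75% (56.55 to 58.95%) of CMP/GMP-only distal regions. Among regions of 30 tags or more it was 63.73% (62 to 65.44%), against 59.93% (59.1 to 60.76%) of constitutive regions. The gene table gives no exons, so introns and exons were not separated. The median distance to the nearest gene end was 22463 bp, against 19074 bp for constitutive and 21952 bp for CMP/GMP-only distal regions. Of all 17362 monocyte-only regions at any distance, 79.34% were distal by this rule, against 61.86% of constitutive and 75.22% of CMP/GMP-only regions. Another 2069 lay within 2.5 kb of a gene end and 1518 over 100 kb from a gene body.

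Most had chromatin open in CMP/GMP not far away. The nearest region called in a CMP/GMP library was a median of 4710 bp off, within 250 bp for 5.822%, within 1 kb for 17.39% and within 10 kb for 72.32%. No such distance was computed for other distal regions, so this closeness is not shown to be particular to monocyte-only regions. Their share of distal regions ran between 13.82% on chromosome 17 and 17.61% on chromosome 15 over the 19 autosomes and was 19.56% (17.81 to 21.39%) on the X chromosome.

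Monocyte-only regions lay near others of their kind. The nearest distal region was also monocyte-only for 23.77% of them (23.07 to 24.49%), against their share of 16.22% among distal regions. For constitutive distal regions the corresponding shares were 34.4% and 32.49%, and for CMP/GMP-only regions 14.06% and 7.764%. In all, 5742 (41.68%) lay within 12.5 kb of another, in 2388 runs, 70 of which held 5 or more.

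The longest run lay inside Plxna2, which encodes plexin A2, a semaphorin receptor. Its 11 monocyte-only regions spanned 46.93 kb (chr1:194641571-194688498), where 12 distal regions were called in all and the remaining 1 was constitutive. They had 8 to 63 tags in Cxcr3-/- and 9 to 66 in WT monocytes. Over the whole gene 15 of 24 distal regions were monocyte-only (62.5%, 40.6 to 81.2%) and 3 were constitutive. The strongest of those 3, in the same run, had 148 and 157 tags in Cxcr3-/- and WT monocytes against 23 and 17 in Cxcr3-/- and WT CMP/GMP.

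Other runs lay in Ttll5 and Daam1 (8 regions each, of 13 and 10 distal regions in the run), Fat3 (7 of 8) and Dock10 (6 of 14). Daam1 encodes a formin that nucleates actin downstream of Wnt signalling. In Lhfpl2 a run of 6 of 12 distal regions held a region of 78 tags in Cxcr3-/- and 132 in WT monocytes. Between Cd9, a tetraspanin, and Vwf, the von Willebrand factor gene, 6 of 9 distal regions were monocyte-only, with up to 61 tags in Cxcr3-/- and 89 in WT monocytes.

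Of 21631 protein-coding genes, 5999 had at least 1 monocyte-only distal region (27.7%), and of the 13300 with any distal region 45.11% did. The number follows gene length. The 86 genes with 10 or more had a median body of 282.3 kb, against 29.62 kb for all genes with a distal region. Lpp, a LIM protein of cell adhesion sites, had the most, 25 of 91 distal regions (27.5%, 18.6 to 37.8%), with 8 to 76 tags in Cxcr3-/- and 8 to 123 in WT monocytes. Next came Magi2 with 20 of 50, Dock10 with 19 of 63, Sh3kbp1, an adaptor of receptor endocytosis, with 18 of 52, and Pde4d, a cAMP phosphodiesterase, with 18 of 110. The Pde4d share of 16.4% was at the level of all distal regions.

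Zeb2, a zinc finger transcription factor of the monocyte and macrophage lineage, stood out by share as well as number. Of its 31 distal regions 17 were monocyte-only (54.8%, 36 to 72.7%), 5 constitutive and 2 CMP/GMP-only. Of the 17, 6 lay in the gene body and 11 outside. The strongest, at chr2:44956300-44956621 and 26891 bp from the body, had 74 tags in Cxcr3-/- and 98 in WT monocytes, where 121 and 73.74 tags were expected in Cxcr3-/- and WT CMP/GMP. Next to it lay regions of 32 tags in Cxcr3-/- and 29 in WT monocytes (13917 bp from the body) and of 32 and 27 tags (20884 bp). The remaining 14 had 10 to 18 tags in Cxcr3-/- and 8 to 30 in WT monocytes, and only 3 of the 17 were among the stronger regions.

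**Figure D3:**
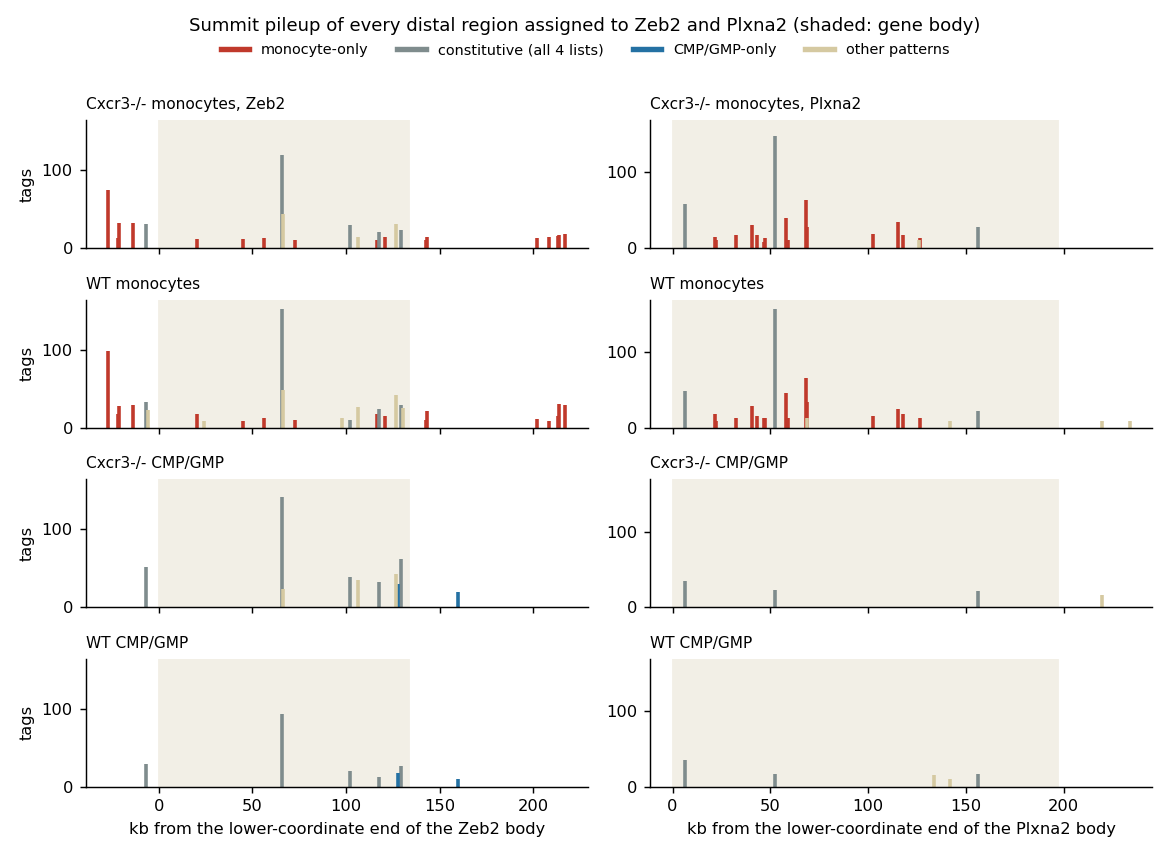
Summit pileup (tags, y axis) of every distal region assigned to Zeb2 (left) and Plxna2 (right) by distance in kb from the lower-coordinate end of the gene body (x axis, body shaded), with 1 row per library. The 17 regions at Zeb2 and 15 at Plxna2 drawn in red stand in both monocyte libraries and in no CMP/GMP row, beside 5 and 3 constitutive regions in grey.

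Among genes with 8 or more monocyte-only regions, listed by share after the values had been seen, Plxna2 was followed by Cab39 (8 of 13), Nubpl, Myo5a and Dlgap2 (8 of 14 each), Fat3 (17 of 30), Tmem26 (9 of 16), Wdr7 (10 of 18) and Zeb2. Kitl, which encodes the ligand of the Kit receptor, followed with 12 of 22 (54.5%, 32.2 to 75.6%), with 9 to 37 tags in Cxcr3-/- and 7 to 37 in WT monocytes.

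Gene groups differed in how much of their distal chromatin was monocyte-only. Over the 20 lists the monocyte-only share of distal regions was highest in macrophage genes and lowest in granulocyte genes, beside 16.2% over all genes. Macrophage genes had 80 of 327 (24.5%, 19.9 to 29.5%), and 33 of the 50 genes had at least 1, a median of 1 per gene. Lineage transcription factors had 166 of 778 (21.3%, 18.5 to 24.4%), with 36 of 50 genes, and adhesion and migration genes 104 of 508 (20.5%, 17 to 24.2%), with 26 of 31 genes. The intervals of these 3 lists lay above the share over all genes. Intervals of all lists take regions as independent, although monocyte-only regions lay near others of their kind, so they are too narrow. Zeb2 alone held 17 of the 166 regions of lineage transcription factors. Counted by genes, 66%, 72% and 83.9% of these lists had a monocyte-only region, beside 27.7% of all protein-coding genes. Among the 13300 genes with any distal region it was 45.11%. A distal region was present at 44 of 50 macrophage genes, 50 of 50 lineage transcription factors and 30 of 31 adhesion and migration genes. CMP/GMP-only regions made up 5.2%, 5.14% and 7.28% of the same lists, beside 7.76% over all genes.

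Genes of granulocyte and GMP granules had 5 of 83 (6.02%, 1.98 to 13.5%), with 5 of 25 genes, and stem and progenitor genes 55 of 448 (12.3%, 9.38 to 15.7%), with 14 of 28 genes. Both intervals lay under the share over all genes. Counted by genes, 20% of the granule list and 50% of the stem and progenitor list had a monocyte-only region, so that the stem and progenitor list lay above the 27.7% of all genes by that count. Over all genes with any distal region that share was 45.11%. When a region was counted at every gene within 100 kb, granule genes had 46 monocyte-only regions and their share relative to all genes was 0.735, against 0.371 here. CMP/GMP-only regions made up 19.3% of the distal regions of granule genes and 14.3% of those of stem and progenitor genes. Monocyte genes had 48 of 312 (15.4%, 11.6 to 19.9%), near the share over all genes. Osteoclast (20.3%), dendritic cell (19.7%), lysosome and lipid (17.4%), angiogenesis (17.1%), inflammatory and NF-kB (16.9%), interferon (15.9%) and chemokine genes (14%) had intervals that held it too.

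The remaining 7 lists were small. Erythroid and megakaryocyte genes had 10 of 48 distal regions monocyte-only (20.8%), of which 7 were at Vwf. T and NK cell genes had 13 of 82 (15.9%), 7 of them at Cd28. B cell genes had 10.6%, mast cell, basophil and eosinophil genes 12.5%, stromal and endothelial genes 17.2%, hepatocyte genes 16.2% and housekeeping genes 9.38%. Each of these 7 intervals held the share over all genes.

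**Figure D4:**
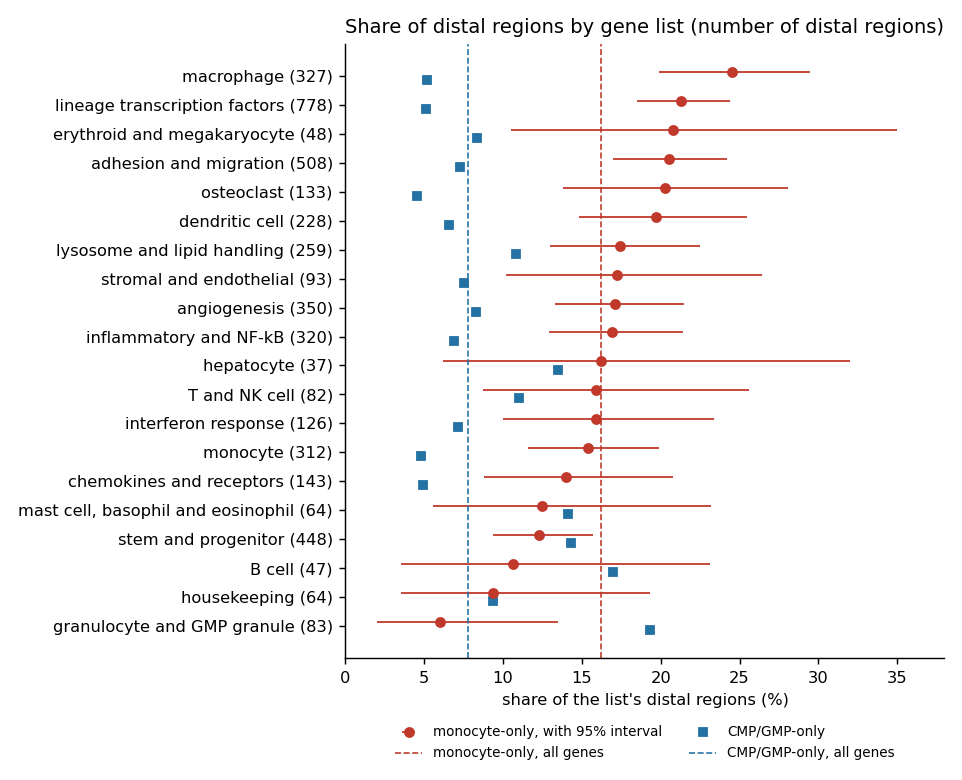
Share of distal regions (%, x axis) that were monocyte-only (circles with exact 95% intervals) or CMP/GMP-only (squares) at the genes of 20 lists (y axis, number of distal regions in brackets), with dashed lines at the shares over all genes, 16.2% and 7.76%. Macrophage genes had 24.5% monocyte-only regions and granulocyte and GMP granule genes 6.02%, with 5.2% and 19.3% CMP/GMP-only regions.

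Among transcription factors, Mitf, a regulator of macrophage, osteoclast and mast cell genes, followed Zeb2 with 14 of 46 distal regions (30.4%, 17.7 to 45.8%). Its strongest region, inside the gene at chr6:97826733-97827088, had 59 tags in Cxcr3-/- and 59 in WT monocytes. Runx1, a factor of early blood development, had 11 of 57 (19.3%) and Runx2, a factor of bone cells, 11 of 44 (25%). Maf, a macrophage factor that also binds extended AP-1-like sites, had 5 of 19. The strongest of them, 52538 bp from the body at chr8:115650107-115650715, had 97 tags in Cxcr3-/- and 118 in WT monocytes. A second, 63978 bp off at chr8:115770872-115771528, had 86 tags in Cxcr3-/- and 82 in WT monocytes. Irf8, a factor of monocyte and dendritic cell fate, Klf4, a monocyte factor, and Cebpb, a C/EBP factor of macrophages, were picked after values had been seen. Klf4 had 2 of 16 (12.5%) and Cebpb 3 of 26 (11.5%), while Irf8 had 9 of 29 (31%, 15.3 to 50.8%), with 7 to 44 tags in Cxcr3-/- and 9 to 97 in WT monocytes. Cxcr3 itself had none.

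The monocyte list, at 15.4%, includes receptors of growth factors and microbial products. Csf1r, the receptor for macrophage colony-stimulating factor, had 5 of 8 distal regions monocyte-only (62.5%, 24.5 to 91.5%), although calls at its gene ends were no higher in monocytes. Of these, 2 lay in the gene body and 3 within 9812 bp of it, with 21 to 29 tags in Cxcr3-/- and 23 to 49 in WT monocytes. Tlr4, the lipopolysaccharide receptor, had 5 of 16. The strongest, 33799 bp from the body, had 43 tags in Cxcr3-/- and 53 in WT monocytes, and the next, 47930 bp off on the other side, 42 and 52. Tlr2, a receptor of bacterial lipoproteins, had 3 of 11, with up to 42 tags in Cxcr3-/- and 50 in WT monocytes. The orphan receptor Gpr141 had 6 of 32, with up to 14 tags in Cxcr3-/- and 22 in WT monocytes.

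Scavenger receptors of macrophages had several weaker regions each. Cd36 had 5 of 16, Msr1 5 of 12, Marco 5 of 15 and Cd163 5 of 15. The strongest at Cd36, inside the gene, had 20 tags in Cxcr3-/- and 45 in WT monocytes, and the strongest at Msr1 29 and 31. Over these 4 genes, tags ran to at most 29 in Cxcr3-/- and 45 in WT monocytes. Of genes of osteoclasts, the bone-resorbing cells of the same lineage, Atp6v0d2, a proton pump subunit, had 5 of 15 with up to 41 tags in Cxcr3-/- and 57 in WT monocytes. Itgb3, the integrin beta chain of osteoclasts and platelets, had 4 of 12, the strongest at chr11:104640941-104641255 with 86 tags in Cxcr3-/- and 97 in WT monocytes. Nfatc1 had 4 of 23 and Tnfrsf11a, the RANK receptor, 4 of 11.

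The genes named next, of inflammation, chemokines and lipid handling, had 2 to 6 monocyte-only regions each. Ptgs2, which encodes cyclooxygenase-2, had 3 of 11 distal regions monocyte-only, and the strongest, 43060 bp from the body at chr1:150151294-150151716, had 87 tags in Cxcr3-/- and 106 in WT monocytes. Il1rl1, the receptor of interleukin-33, had 4 of 8, the strongest at chr1:40444730-40445215 with 97 tags in Cxcr3-/- and 90 in WT monocytes. Ccl2, the chemokine that draws monocytes, had 3 of 10, the strongest 18760 bp off at chr11:82016460-82016817 with 72 tags in Cxcr3-/- and 95 in WT monocytes. Ccr1, a receptor of CC chemokines, had 2 of 17, with 73 and 74 tags in Cxcr3-/- and WT monocytes at the stronger. That Ccr1 region lay on high background, with fold enrichments of only 2.42 in Cxcr3-/- and 2.66 in WT monocytes. The strongest Ptgs2 region had 23.2 and 28. Irak3, a brake on Toll-like receptor signalling, had 6 of 16, and Tnfaip3, a brake on NF-kB, 5 of 25. Plin2, the lipid droplet coat protein, had 4 of 10, all among the stronger regions, with 23 to 59 tags in Cxcr3-/- and 40 to 66 in WT monocytes. Cd9 had 6 of 25 and Nceh1, a cholesterol ester hydrolase, 6 of 21.

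Of angiogenic genes, Kdr, the main receptor of vascular endothelial growth factor, had 9 of 23 (39.1%, 19.7 to 61.5%). The strongest, 11199 bp from the body at chr5:75990271-75990643, had 65 tags in Cxcr3-/- and 100 in WT monocytes. Pdgfb, a growth factor of pericytes, had 4 of 7 and Vegfc, a lymphatic growth factor, 4 of 9, with up to 48 and 62 tags in Cxcr3-/- and 55 and 50 in WT monocytes. Nrp1, a co-receptor, had 7 of 47. Of adhesion genes, Itgb8 had 9 of 32, Myo1e, a motor of podosomes, 8 of 27, Dock4 8 of 39 and Itgb1, the common beta-1 integrin chain, 7 of 16. The strongest at Myo1e had 79 tags in Cxcr3-/- and 88 in WT monocytes.

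Of dendritic cell genes, Cadm1 had 13 of 39 and Tcf4 13 of 50, both long genes. Of interferon genes, Ifngr1, the interferon gamma receptor chain, had 4 of 18, and Ifi204, a DNA sensor, 4 of 8, with none at Ifi204 over 19 tags. Progenitor genes were not without such regions. Mecom had 8 of 25, Fli1 7 of 30, Etv6 7 of 56 and Cdk6 7 of 52, while Kit, the receptor of stem cell factor, had 1 of 20, with 18 tags in Cxcr3-/- and 23 in WT monocytes. The 5 regions of granule genes lay 1 each at 5 genes, among them Padi4, Cxcr4, Csf3r and Mmp8, with 13 to 18 tags in Cxcr3-/- and 13 to 26 in WT monocytes at these 4.

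The genotypes were compared by the log2 ratio of Cxcr3-/- to WT monocyte pileup, after division by size factors of 0.8463 and 1.075 taken from the 44591 regions called in all 4 libraries. The rule asks for a call in both monocyte libraries and so leaves out regions lost in either, but does not use the ratio. Among the 3044 monocyte-only regions of 30 tags or more the median was 0.016 (0.006 to 0.033) with an SD over regions of 0.37, and among 13470 constitutive distal regions it was 0.038 (0.031 to 0.046) with an SD of 0.35. Over 2-fold higher in Cxcr3-/- monocytes were 13 monocyte-only regions (0.427%, 0.228 to 0.729%), beside 0.274% of all 30652 regions called in both monocyte libraries. Over 2-fold lower were 9 (0.296%, 0.135 to 0.561%), beside 0.395%. These counts turn on the scaling: with libraries scaled by background tags the median was -0.354, 0 regions were over 2-fold higher and 123 over 2-fold lower in Cxcr3-/- monocytes. With 1 library per genotype the difference has no replicate check, and cell numbers, culture and genotype cannot be told apart.

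The highest ratios were at a region inside Slc16a7, a monocarboxylate transporter, with 63 tags in Cxcr3-/- and 33 in WT monocytes (log2 1.28, 0.65 to 1.93). Next were Adcy2 with 44 and 24 tags (1.22), Prcp with 50 and 28 (1.18), and Epsti1, an interferon-induced gene, with 41 and 23 (1.18). Arpp21, Ammecr1, Serpina5 and Cntnap2 followed with ratios of 1.05 to 1.11. The lowest ratio was inside Synj2, a phosphoinositide phosphatase, with 21 tags in Cxcr3-/- and 62 in WT monocytes (log2 -1.22, -2.01 to -0.48). Inside Rasa4 a region had 21 tags in Cxcr3-/- and 57 in WT monocytes (-1.09). Fnbp1, Ubr2, Slc43a2, Ccdc88b and Top3a followed with ratios of -1.09 to -1.04. None of the 22 regions past 2-fold reached a mean pileup of 60 tags, a limit passed by 525 monocyte-only regions, so at that depth up to 0.571% is allowed, with 3 counts as the limit of a count of 0. The median ratio of those 525 was 0.113, and the Camk2d region had a log2 ratio of 0.18 (-0.10 to 0.45).

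The ratio went with gene density. Gene density was counted as protein-coding genes whose midpoint lay in a window of 1 Mb centred on the region. In monocyte-only regions with 0 to 2 such genes the median log2 ratio was 0.214 (0.175 to 0.289), and with 3 to 5 genes 0.143. With 6 to 10 genes it was 0.057, with 11 to 20 genes -0.044, and with over 20 genes -0.177 (-0.221 to -0.147). Constitutive distal regions had 0.270, 0.159, 0.082, -0.027 and -0.140 in the same classes of density, a like gradient at slightly higher values. The 8 lowest-ratio regions had 9 or more genes in their windows, and of the 8 highest-ratio regions 7 had 8 or fewer and Serpina5 had 24. Gene density moves with these single-region ratios, and its part in them was not tested. On the X chromosome the median was 0.147 in 35 monocyte-only and 0.144 in 194 constitutive distal regions.

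**Figure D5:**
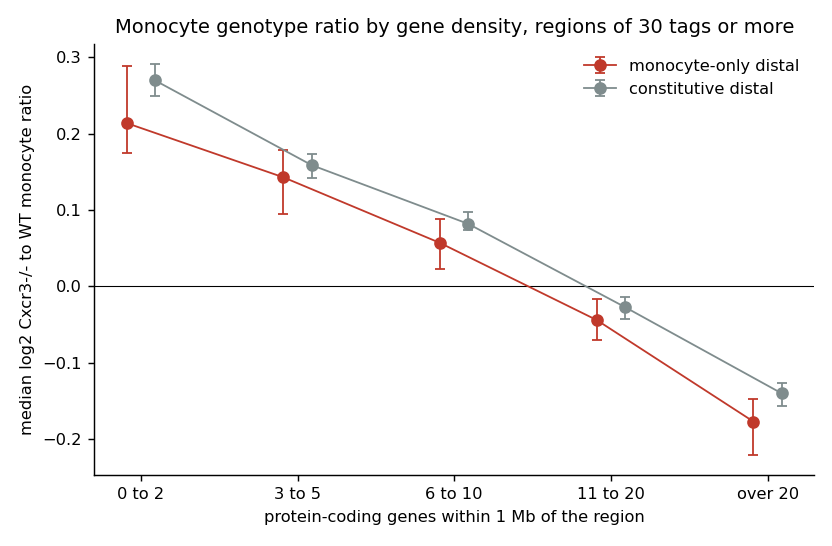
Median log2 ratio of Cxcr3-/- to WT monocyte pileup (y axis) of monocyte-only and constitutive distal regions of 30 tags or more, by the number of protein-coding genes within 1 Mb (x axis), with exact 95% intervals of the median. The medians of monocyte-only regions ran from 0.214 at 0 to 2 genes to -0.177 at over 20 genes, and those of constitutive regions from 0.270 to -0.140.

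By list, the monocyte-only regions of macrophage genes had a median log2 Cxcr3-/- to WT ratio of -0.095 (17 regions of 30 tags or more), those of lineage transcription factors -0.034 (44 regions), those of adhesion and migration genes -0.140 (24 regions) and those of lysosome and lipid genes -0.269 (18 regions). Other lists had higher medians, with 0.110 for stem and progenitor genes (16 regions), 0.087 for angiogenesis genes (13 regions) and 0.037 for monocyte genes (17 regions), while inflammatory and NF-kB genes had -0.119 (13 regions) and dendritic cell genes -0.195 (11 regions), beside 0.016 over all monocyte-only regions. No test was made of these medians, and 1 library per genotype stands behind each. Gene density, with which the ratio went, was not matched between lists, and its part in these medians was not tested.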

How the data were processed

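Omni-ATAC-seq interval lists of 4 libraries, 1 per genotype and cell type, were analysed as deposited. Per the submitters' processing notes, Trim Galore, Bowtie2, SAMtools and the mm10 build were used. Which caller made the intervals is not stated, nor whether the duplicate sequencing named in the labels was pooled. Each deposited fold enrichment is the authors' ratio of summit pileup to expected background, and each −log10 p and −log10 q is the value that the authors deposited for that interval. The deposited score was not used further. All are an interval's own values and served to recover pileups and to rank or filter.

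Whole-number pileups were solved from fold and −log10 p, taking a Poisson background and 1 added tag, and were whole within 0.001 for all but 0, 1, 2 and 0 intervals of Cxcr3-/- monocytes, WT monocytes, Cxcr3-/- CMP/GMP and WT CMP/GMP. The lists held 78244, 98257, 80171 and 69521 intervals in that order, with 97.2, 95.6, 194 and 134.6 background tags per 10000 bp as a measure of depth and size factors of 0.8463, 1.075, 1.355 and 0.8257. The median pileup was 21 tags, and 29 in Cxcr3-/- CMP/GMP, so most regions are measured with wide counting error. The recovery was tested on simulated data.

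Regions were assigned to the protein-coding gene of RefSeq GRCm38.p6 (21631 genes) that held them or lay nearest within 100 kb. All 537 listed symbols matched. Shares have Clopper-Pearson intervals, ratios exact Poisson intervals and medians order-statistic intervals, at 95%. For a count of 0 the upper limit is 3 counts over the total. The regions, the 20 gene lists and the naming of genes were settled with earlier results of these data known. Named were the 15 genes with most regions, the 15 strongest regions, up to 4 genes per list, the 8 highest and 8 lowest ratios at 30 tags or more, and Cxcr3, Csf1r and Maf. The genes of runs, promoter windows, distance limits and high shares were named after their values were seen. The planned motif count in windows at every summit was replaced by RefSeq promoter windows, because no genome was used here. Chromosome Y and unplaced sequence were left out. Python 3.11.15, NumPy 2.4.6, pandas 2.3.3, SciPy 1.17.1 and matplotlib 3.10.9 were used. Alternatives were other scalings, minimum pileups, q, gap and distance limits, lists of equal length and the stronger regions alone. Some regions that the naming rule picks are not reported here.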

Additional observations from a re-analysis of the deposited data

How the results depend on the processing

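The number of regions stayed within 1.5 times of 13775 under 6 alternatives, between 10322 at a −log10 q of at least 5 in the monocyte lists and 14767 at over 1 kb from gene ends. Scaling by background tags in place of shared regions moved every log2 ratio by -0.370: the median ratio became -0.354, regions over 2-fold higher in Cxcr3-/- monocytes 0 of 3044 (up to 0.0986% with 3 counts as the limit of 0) and lower 123, and the number of stronger regions became 8475. The median ratio was 0.104 with no minimum pileup and 0.113 at 60 tags or more, where 0 regions passed 2-fold in either direction. The median minus that of constitutive distal regions, -0.023 as reported, turned to 0.048 and 0.034 under these 2 limits. Background scaling cannot move this difference, since it shifts every log2 ratio by the same amount. Among the stronger regions alone, chosen as an alternative after seeing the data, 64.81% lay in gene bodies. There the share of a list relative to that of all genes was 1.88 for macrophage genes (1.51 with all regions), 1.53 for lineage transcription factors (1.32), 1.33 for monocyte genes (0.948), 1.84 for lysosome and lipid genes (1.07), 0.472 for interferon genes (0.978) and 0 of 83 regions for granulocyte genes (up to 3.61% by the same limit). The cause of these moves was not tested. Granulocyte genes had 0.371 with all regions and 0.735 when every gene within 100 kb was counted. The other 54 of 60 list values stayed within the list's interval. AP-1 shares of monocyte-only windows were 31.1 to 34.8% and C/EBP shares 4.12 to 5.83% under a stricter q, in lncRNA windows alone and in windows holding both summits. Motif shares in lncRNA windows alone were not computed for constitutive or CMP/GMP-only regions. Other motif window lengths at every summit were not run, since they need a genome. No paired analysis was possible because the regions have no value in CMP/GMP and each monocyte genotype has 1 library. Intervals cover counting error only, and a region under 30 tags carries little weight alone.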
